A study of Xenopus laevis and Petromyzon marinus with 21 samples.

Results

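Animal caps are the ectodermal roof of the frog blastula, cut out and grown as explants. Uninjected caps of Xenopus laevis were compared between stage 9, the late blastula, and stage 13, the early neurula. The comparison was defined by stage and treatment, with earlier results of these data known. It used 6 of the 21 libraries of the series: 3 of control caps at stage 9 and 3 of control caps at stage 13. Both groups were wild type and received no treatment, and all caps were kept in 1X Marc's Modified Ringers. The labels call the stage 9 cells animal pole stem cells of the blastula and the stage 13 cells epidermal cells. The other frog libraries, control caps at stage 17 and caps made from embryos that received wnt8a and chordin mRNA at the 2-cell stage (called induced caps here; their source is labelled induced neural crest), entered the fit, and induced caps of stages 9 and 13 are compared at the end. Lamprey libraries were not used. Libraries of a group are called a, b and c after the column names. The labels do not say whether they came from separate clutches, so a p-value here reflects only how these samples vary, which could be technical.

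A frog egg carries a store of maternal RNA that runs the first divisions, and the embryo's own genome is switched on at the mid-blastula transition. Maternal transcripts are then cleared while zygotic genes take over. Stage 9 lies after that switch, so maternal RNA and early zygotic RNA of a gene cannot be told apart in these libraries. Cells of the blastula animal pole are pluripotent. Left alone and with BMP signalling active, a cap forms the larval epidermis, which consists of an outer mucus-secreting layer and an inner layer from which multiciliated cells and ionocytes intercalate. In bulk RNA, fewer cells of a type and less RNA per cell cannot be told apart.

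Most tested genes changed between these stages, so the counts of each list below are to be read beside the shares over all genes. Total counts in genes ran from 15658275 to 22087233 per library, and 26736 to 27888 genes were detected. Of 24499 genes tested, 9402 rose (38.4%), 9216 fell (37.6%) and 5881 (24.0%) did not pass an adjusted p of 0.05 (edgeR's quasi-likelihood test, with the library letter as a block and Benjamini-Hochberg adjustment over all genes). A change of at least 2-fold that passed the test was seen in 7787 rising (31.8%) and 7589 falling genes (31%). The libraries of the 2 stages did not overlap in 8729 of the 9402 rises and 8511 of the 9216 falls. The middle of the distribution stayed near 0, with a median log2 change of −0.01 and quartiles of −1.63 and 1.74. On the TMM scale, described below, the upper tail reached further than the lower. The 95th percentile was 5.82 and the 5th percentile −4.37 on the log2 scale, and 2439 genes rose and 1572 fell by at least 16-fold. Stage 13 levels were gained from at most 3 counts over the stage 9 libraries by 1279 genes, 147 of which reached a mean of at least 10 CPM (counts scaled to a common library size, after TMM), whereas 814 genes fell to at most 3 counts over the stage 13 libraries.

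The balance of rises and falls rests on the scaling. TMM centres the bulk of genes on 0 and gave factors of 1.38 to 1.4 at stage 9 and 0.793 to 0.805 at stage 13, and a few genes took a larger share of the counts at stage 13. The first 50% of counts came from 2000, 1818 and 1808 genes in libraries a, b and c at stage 9, and from 590, 597 and 661 genes at stage 13. Scaling to library totals alone moved the median change by −0.79 and gave 6596 rises and 12706 falls, so rises made up 34.2% of calls instead of 50.5%. The median over all genes was then −0.80, and list medians with totals are to be read beside that value. The 6596 rises were all rises with TMM too, and the 9216 TMM falls all stayed falls, whereas 2529 TMM rises no longer passed and 277 became falls. With totals, 5443 genes passed as rises and 10841 as falls of at least 2-fold. The reach of the tails was read on the TMM scale only. The shift of −0.79 with totals shortens the upper tail and lengthens the lower, so the further reach of the upper tail is given for TMM only. Percentiles with totals were not read. Absolute RNA per cell was not measured, so which scaling describes a cell's content was not tested. Changes below are on the TMM scale and differ by about this amount with totals; CPM is not corrected for gene length, so where genes are ranked by CPM gained or lost the rank is one of counts and not of molecules.

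**Figure D1:**
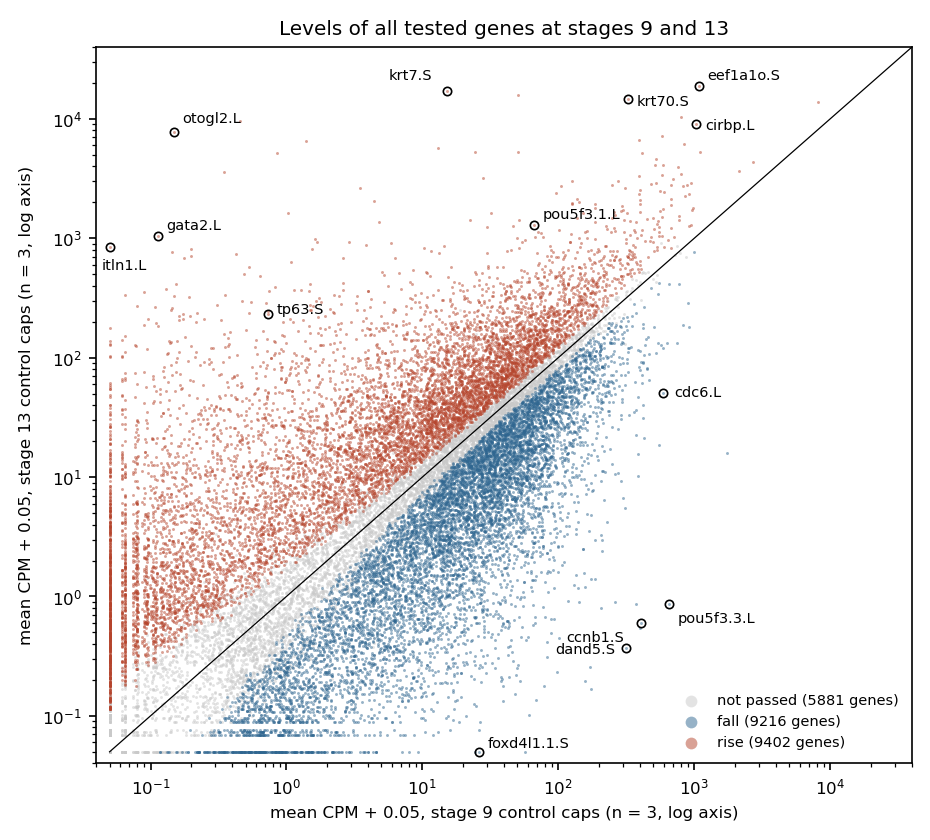
Mean level of each of 24499 tested genes in stage 9 (x axis) and stage 13 (y axis) control caps, as CPM + 0.05 on log axes, n = 3 libraries each; the line marks equal levels. Red points rose, blue points fell and grey points did not pass; genes with no counts at stage 9 stand in the column at the left edge, which reaches to itln1.L at a mean of 841 CPM.

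Markers of the labelled cell types were read first. Of 20 gene copies marking epidermis, 19 rose and none fell, and their summed level went from 603 to 754 CPM over the stage 9 libraries to 33195 to 36791 CPM at stage 13. Frog genes mostly exist as an L and an S copy, on the long and the short chromosome of each pair, and copies are counted separately here. The exception was cdh1.L, at 0.399, 0.139 and 0 CPM at stage 9 and 0.343, 0.315 and 0.136 CPM at stage 13, while cdh1.S rose. Of 14 copies of blastula markers, 8 fell and 5 rose, as described below. The groups did not overlap for either sum.

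Markers of other lineages were low at stage 13, with some exceptions. Mesoderm markers summed to 1.02 to 2.17 CPM at stage 9 and 0.629 to 4.61 CPM at stage 13, with myf5 at 0 in every library. Neural crest and plate border markers went from 114 to 134 CPM in sum to 3.12 to 7.41 CPM, with 1 copy rising and 4 falling of 10. Nearly all of the stage 9 sum was zic1, and sox10 had 1 count over the 6 libraries. The copy that rose was snai2.L, from 0.0726, 0.0464 and 0 CPM to 4.74, 6.07 and 2.24 CPM (adjusted p = 3.34e-08). It made up most of the stage 13 sum, while snai2.S did not pass. Neural plate markers went from 6.31 to 8.0 CPM up to 42.3 to 52.2 CPM, with 7 copies rising and 4 falling of 11. Endoderm markers went from 20.5 to 27.4 CPM up to 64.0 to 140.2 CPM, and a2m.S alone gave 126, 54.3 and 75.3 CPM of the stage 13 sums. Cement gland markers (pitx1 and agr2) went from 0.254 to 0.325 CPM up to 215 to 332 CPM, carried by agr2, an anterior gradient gene of secretory cells. The hatching gland marker he matched no gene symbol, so the hatching gland was not read. The part of these cells in the results below was not tested.

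Oocyte and maternal transcripts mostly fell. In these poly(A) libraries a shorter tail and loss of the message cannot be told apart. Of 70 tested gene copies of the oocyte and maternal list, out of 74 in the file, 56 fell, 12 rose and 2 did not pass, with a median log2 change of −2.50 against −0.01 over all genes; 51 fell at least 2-fold. Library totals gave 58 falls and 6 rises. The ovarian and egg gene btg4.S, an adaptor for deadenylation of maternal messages in the mouse, read 42.6, 12.9 and 17.9 CPM at stage 9 and had no counts in any stage 13 library. Its fall was therefore at least 388-fold, against a floor of 3 counts over the group. Levels of ccna1.L, the cyclin A of eggs and early cleavage, went from 457, 279 and 375 CPM to 0.4, 0.867 and 1.15 CPM (log2 change −8.86 ± 0.32 (SE), adjusted p = 1.77e-11). The S copy of ccna1 stood at 649, 94.3 and 151 CPM at stage 9, with library a far above b and c, and at 5.94, 4.89 and 9.02 CPM at stage 13, so the groups did not overlap. Both copies read higher again in control caps of stage 17, ccna1.L at 34.5, 40.7 and 53.6 CPM and ccna1.S at 64.9, 70.6 and 55.4 CPM. The secreted Nodal antagonist dand5.S, a maternal gene of the Cerberus family, went from 337, 279 and 325 CPM to 0.343, 0.0788 and 0.542 CPM (log2 change −9.87 ± 0.31 (SE), adjusted p = 6.80e-12).

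The 12 rises were ddx4.L, wnt11b.L, trim36.S, sybu.S, eif4e1b.S, lsm14b.L, both copies of igf2bp3, celf1 and eef1a1o; 6 of them passed as rises with library totals. Elongation factor eef1a1o, named for the oocyte, stood out. For eef1a1o.S the 3 libraries read 848, 1209 and 1214 CPM at stage 9 and 18534, 19701 and 18307 CPM at stage 13 (log2 change 4.12 ± 0.21 (SE), adjusted p = 2.69e-10). Its gain in CPM was the largest among called genes with a symbol. The summed level of the list was 6020, 5099 and 5484 CPM at stage 9 and 20974, 21744 and 19993 CPM at stage 13. Without both eef1a1o copies, a sum chosen after the values were seen, the list held 4999, 3690 and 4081 CPM at stage 9 and 1192, 1063 and 960 CPM at stage 13, a ratio of 0.252. The germline helicase ddx4.L also passed as a rise, at 87.2, 93.4 and 112 CPM and 139.6, 127 and 125 CPM, but the call (log2 change 0.41 ± 0.16) was lost when any of 5 libraries was left out, with adjusted p up to 0.162, and the sign turned with library totals.

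Many maternal proteins have a later counterpart. Most copies of early forms fell and most copies of later forms rose, counted over copies and not by matched pair. Some early copies, such as eef1a1o and eif4e1b.S, are also in the oocyte and maternal list, so the counts partly overlap. Of 33 tested copies of oocyte or early forms, 29 fell, 3 rose and 1 did not pass (median log2 change −2.66), and of 35 tested copies of later forms, 27 rose, 7 fell and 1 did not pass (median 2.02). With library totals the counts were 30 falls and 2 rises of early forms, and 23 rises and 8 falls of later forms. The early copies that rose were eif4e1b.S and both eef1a1o copies, and the later copies that fell were ccna2.L, ccna2.S, lmna.L, tbp.L, tbp.S, patl1.L and cpeb4.S.

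Some chromatin and nuclear envelope proteins showed a fall of the early and a rise of the later form, although lmna.L fell. The oocyte linker histone h1-8.S read 405, 430.3 and 362 CPM at stage 9 and 86.3, 124 and 25.8 CPM at stage 13, and h1-8.L went from 86.8, 179.9 and 203 CPM to 0.972, 1.42 and 1.08 CPM. Linker histone h1-10.S rose meanwhile from 16.5, 17.4 and 19.6 CPM to 209.5, 324 and 172 CPM (log2 change 3.68 ± 0.22 (SE), adjusted p = 1.05e-09). The linker histones h1-4 and h1-2 of the list matched no gene symbol, so their change was not read. Lamin lmnb3.L, the lamin of the oocyte nucleus, fell from 239.9, 202 and 202 CPM to 34.4, 23.3 and 27.0 CPM, and lmnb1.L rose from 492, 565 and 601 CPM to 1162, 1175 and 1059 CPM. The weaker rise of lmnb1.S (log2 change 0.58 ± 0.11) became a fall of −0.21 with totals. Storage nucleoplasmin npm2.L fell (log2 change −1.24 ± 0.16), while npm1.L, the nucleolar phosphoprotein, rose (log2 change 1.94 ± 0.12). The call for npm2.S (log2 change −0.82 ± 0.26, adjusted p = 0.0102) rested on the block: its libraries read 67.2, 25.2 and 48.1 CPM and 64.2, 8.83 and 24.6 CPM, a spread by letter that overlapped between stages, and adjusted p was 0.537 without the block and 0.0686 without library b of stage 13.

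Cell cycle and replication genes had the same pattern for some members. The maternal form of the kinase that restrains Cdk1, wee2.S, fell from 191, 243 and 216 CPM to 5.54, 10.6 and 2.85 CPM, and wee1.S rose from 21.2, 16.6 and 20.4 CPM to 65.0, 55.6 and 69.0 CPM. Replicative helicase subunit mcm3.L fell from 91.0, 81.7 and 93.0 CPM to 3.66, 2.52 and 2.1 CPM (log2 change −5.04 ± 0.30 (SE), adjusted p = 1.02e-09), and its zygotic relative zmcm3.L rose from 26.6, 45.2 and 27.3 CPM to 344, 335 and 299 CPM (log2 change 3.34 ± 0.19 (SE), adjusted p = 8.61e-10). The stages did not overlap in any of these 4 genes, as in most called genes. For mcm6 the maternal mcm6.L fell (log2 change −1.48 ± 0.19) and the zygotic mcm6.2.L and mcm6.2.S rose (log2 change 4.40 ± 0.17 and 3.17 ± 0.13). Cyclin A was different, because ccna2.L and ccna2.S, the somatic form, fell as well (log2 change −2.49 ± 0.20 and −1.93 ± 0.14). Histone stem-loop binding protein differed by copy: slbp.L fell from 542, 637 and 727 CPM to 166, 116 and 113 CPM, and slbp.S went from 64.0, 63.1 and 49.0 CPM to 88.1, 103 and 84.4 CPM, a rise of 0.64 ± 0.12 that turned to −0.15 with totals.

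Among messenger RNA binding proteins, early Y-box and poly(A)-binding forms fell while later forms rose. Others did not part in this way. Oocyte Y-box protein ybx2.L, which packages stored messages, fell from 53.3, 48.5 and 46.6 CPM to 9.66, 11.4 and 8.14 CPM, and ybx1.S rose from 492, 608 and 679 CPM to 3730.2, 4149 and 4441 CPM (log2 change 2.80 ± 0.14 (SE), adjusted p = 1.55e-10). The embryonic poly(A)-binding protein pabpc1l.L fell (log2 change −1.55 ± 0.20), and somatic pabpc1.S, pabpc1.L and pabpc4.L rose (log2 change 2.55 ± 0.12, 1.66 ± 0.12 and 4.39 ± 0.21). The cytoplasmic polyadenylation factor cpeb1.L fell from 155, 45.3 and 92.7 CPM to 0.229, 0.315 and 0 CPM, and cpeb4.S fell (log2 change −1.33 ± 0.23). Decapping cofactors patl2.L, the oocyte form, and patl1.L both fell (log2 change −8.01 ± 0.31 and −2.05 ± 0.24). Cap-binding proteins went the other way together: oocyte-type eif4e1b.S rose (log2 change 0.95 ± 0.11), a call that did not pass with totals, and eif4e.L (log2 change 2.02 ± 0.22). Among basal transcription factors both the oocyte form tbpl2.L and general tbp.L and tbp.S fell, tbp.L from 72.2, 56.8 and 66.5 CPM to 4.17, 3.23 and 7.26 CPM. Importin alpha kpna7.L of the egg fell (log2 change −1.62 ± 0.26) and kpna2.L rose (log2 change 1.03 ± 0.23), which did not pass with totals. The falls of ybx2.S (log2 change −1.03 ± 0.21) and kpna7.S (log2 change −0.93 ± 0.26) did not pass without the letter block, with adjusted p of 0.0614 and 0.0555.

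**Figure D2:**
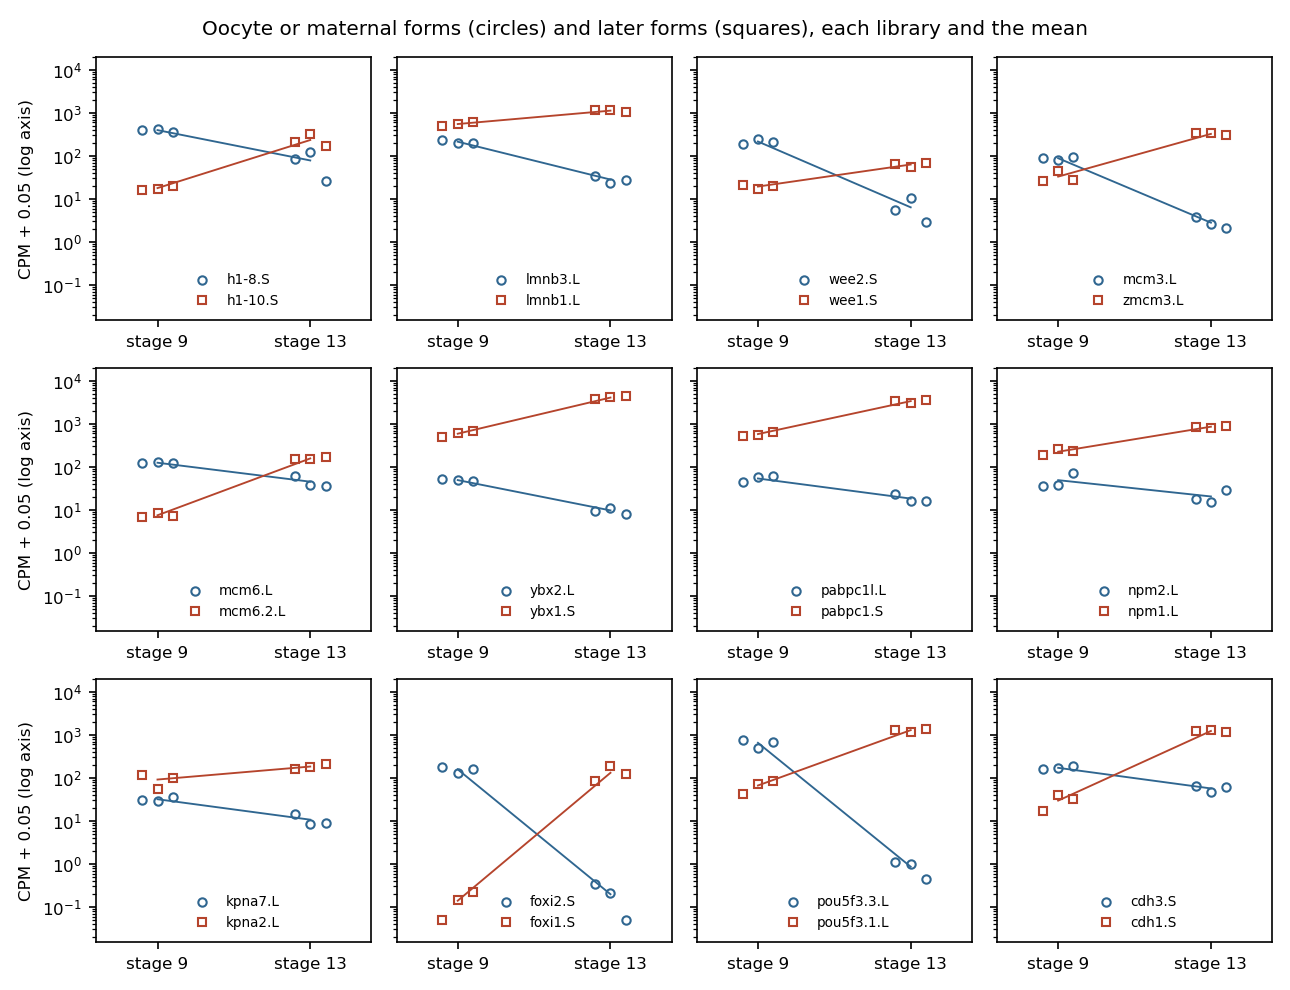
CPM + 0.05 (log axis) of an oocyte or early form (blue circles) and a later form (red squares) in each of the 3 libraries at stage 9 and stage 13; lines join the means. The 12 panels were picked from forms in which the early copy fell and the later copy rose. Panels show 1 copy of each form, so cdh3.L, which did not pass, is not drawn. The forms for which both moved the same way, such as ccna1 and ccna2, are given in the text only.

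Pluripotency regulators of the blastula split within families. Of 61 tested copies of the blastula regulator list, 30 rose (49.2%), 21 fell (34.4%) and 10 did not pass. Over all genes 38.4% rose and 37.6% fell. The list had a median log2 change of 0.86, which was 0.07 with library totals. The Oct4 homologues of the pou5f3 cluster changed places. The maternal member pou5f3.3.L fell from 769.8, 506 and 693 CPM to 1.09, 0.946 and 0.407 CPM (log2 change −9.67 ± 0.28 (SE), adjusted p = 6.80e-12), and pou5f3.3.S from 499, 287 and 408 CPM to 0.972, 0.315 and 0.203 CPM. The fall was near complete in every library. For pou5f3.2 the fall was partial, with pou5f3.2.L at 648, 722 and 878 CPM and then 163, 96.7 and 137 CPM (log2 change −2.58 ± 0.41) and pou5f3.2.S at 350.0, 354 and 424 CPM and then 22.9, 16.7 and 27.8 CPM. The third member rose: pou5f3.1.L went from 42.6, 73.4 and 84.2 CPM to 1322, 1158 and 1401 CPM (log2 change 4.26 ± 0.39 (SE), adjusted p = 1.86e-07), and read 162, 104 and 209 CPM in the control caps of stage 17.

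The SoxB1 gene sox3, a maternal regulator of the ectoderm that also keeps neural progenitors, fell in both copies, sox3.S from 508, 498 and 650.4 CPM to 18.7, 21.3 and 15.3 CPM (log2 change −4.86 ± 0.40 (SE), adjusted p = 7.66e-08). FoxI factors changed places as well. The maternal activator foxi2.S fell from 184, 127 and 163 CPM to 0.286, 0.158 and 0 CPM, and foxi1.S, its zygotic target in ectoderm and later an ionocyte factor, rose from 0, 0.0928 and 0.177 CPM to 84.8, 185 and 126 CPM (log2 change 10.53 ± 1.55 (SE), adjusted p = 4.10e-05). Stage 13 library a was lowest for both foxi1 copies. Ventx homeobox repressors, which act downstream of BMP, were mixed: ventx2.1.S rose from 90.6, 133 and 134 CPM to 283, 354 and 261 CPM and ventx1.2.L (log2 change 3.48 ± 0.66), while ventx2.1.L, at 21.4, 58.6 and 75.6 CPM and 112, 89.8 and 104 CPM, did not pass (adjusted p = 0.2) although the stages did not overlap; with the 9 control libraries alone adjusted p was 0.0312, and the rise of ventx2.1.S did not pass with totals (0.0865). The rise of ventx1.2.S (log2 change 1.03 ± 0.38) was lost without the block (adjusted p = 0.121) and when any of 3 libraries was left out (up to 0.0985). AP-2 factor tfap2c.S and the BMP target id3.S rose (log2 change 2.00 ± 0.11 and 2.19 ± 0.35).

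Genes that pattern the early gastrula fell more often than they rose. Of 67 copies of the early zygotic list in the file, 45 were tested. Of these 22 fell (48.9%, against 37.6% over all genes), 4 rose (8.89%, against 38.4%) and 19 did not pass. The median log2 change was −2.36. The maternal T-box endoderm determinant vegt.L fell from 60.2, 56.4 and 50.4 CPM to 0.114, 1.5 and 1.22 CPM (log2 change −6.11 ± 0.80 (SE), adjusted p = 8.10e-06), and the organiser homeobox gene not.L from 65.6, 88.6 and 58.2 CPM to 2.69, 3.94 and 4.81 CPM. The GATA factor gata6.S rose, from 0.145, 0 and 0.0884 CPM to 20.9, 25.9 and 26.2 CPM, and read 0.797, 0.985 and 0.781 CPM at stage 17. Forkhead genes were among the 12 largest falls in fold, which also held foxd4l1.1.L and foxi2.L. Of these foxd4l1.1.S, a forkhead gene of immature neural ectoderm, read 27.0, 35.5 and 16.1 CPM and then none (at least 391-fold lower), and foxh1.S, the partner of Smad2 in Nodal signalling, read 12.9, 38.5 and 26.9 CPM and then 0, 0.0788 and 0 CPM. Zinc finger genes zic1 and zic2, of the neural plate and its border, fell too. Levels of zic2.L went from 91.4, 56.1 and 57.8 CPM to 0.114, 0.0788 and 0.0678 CPM and of zic1.S from 82.6, 89.4 and 105 CPM to 1.26, 0.394 and 0.136 CPM (log2 change −7.16 ± 0.48 (SE), adjusted p = 7.60e-09).

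Cell cycle genes fell somewhat more often than all genes. Of 131 tested copies, 62 fell (47.3%, against 37.6% over all genes), 49 rose (37.4%, against 38.4%) and 20 did not pass, with a median of −0.39. The summed level of the list fell to 0.559 of its stage 9 value (exact permutation p = 0.1, the smallest that 3 against 3 libraries allow). Mitotic cyclins fell, among them ccnb1.S from 460.0, 341 and 426 CPM to 0.686, 0.158 and 0.814 CPM, ccnb1.2.L from 709.8, 850.3 and 906 CPM to 196, 193 and 179 CPM and ccnb2.L (log2 change −2.15 ± 0.18). Of the cyclin B1 genes, ccnb1.S was thus almost gone at stage 13 and ccnb1.2.L was not. The replication licensing factor cdc6.L fell from 497, 652 and 630.2 CPM to 48.1, 52.6 and 50.8 CPM (log2 change −3.54 ± 0.14 (SE), adjusted p = 3.76e-11). Rises included top2a.L, the topoisomerase of dividing cells, from 102, 111 and 116 CPM to 593, 463 and 525 CPM, and incenp.L, a chromosomal passenger protein (log2 change 1.04 ± 0.11), which did not pass with library totals (0.25).

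The epidermal programme was switched on. Of 52 tested copies of epidermal regulators, 41 rose, 7 fell and 4 did not pass, with a median log2 change of 3.35 (3.18 with the 4 copies that lacked counts in a stage set at their bound). GATA factors gata2 and gata3, BMP-dependent regulators of ventral ectoderm, came up from near 0. In the 3 libraries gata2.L read 0.145, 0 and 0.0442 CPM at stage 9 and 1054, 1022 and 1031 CPM at stage 13, and gata3.S 0.181, 0.0464 and 0.0442 CPM and 236, 255 and 259 CPM. The basal-layer factor tp63.S rose from 0.907, 0.742 and 0.398 CPM to 184, 257 and 254 CPM (log2 change 8.38 ± 0.88 (SE), adjusted p = 1.13e-06). Grainyhead factors, which drive barrier and keratin genes, were already present at stage 9: grhl1.L rose from 169, 105 and 98.3 CPM to 1065, 1185 and 1009 CPM and grhl3.S from 38.0, 72.6 and 52.0 CPM to 1028, 1026 and 765 CPM. The homeobox gene dlx3.S rose (log2 change 6.59 ± 0.40). Against this direction both copies of the chromatin organiser satb1 fell (log2 change −2.71 ± 0.24 for L and −2.42 ± 0.29 for S).

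Keratins, the intermediate filament proteins of epithelia, rose. The table holds 77 keratin copies, 28 of which had enough counts to be tested; 26 of these rose, none fell and 2 did not pass. Their summed level at stage 13 was 63.9 times that at stage 9. The median log2 change was 8.35, or 6.45 with the 5 copies that had no counts at stage 9 set at their bound. Those 5 copies entered the test through other groups and could rise or not pass, but not fall. The lack of falls is thus partly set by the filter on low counts. The most abundant gains were krt7.S, from 9.47, 18.3 and 17.9 CPM to 16893, 18487 and 16433 CPM (log2 change 10.17 ± 0.49 (SE), adjusted p = 3.82e-10), krt7.L, from 24.0, 56.6 and 71.5 CPM to 15399, 17698 and 14223 CPM, and krt70.S, from 255, 368 and 360.4 CPM to 16287, 14032 and 13356 CPM. These keratins were thus already present in the blastula caps, whereas krt12.4.S read 0.218, 0.371 and 0.309 CPM at stage 9 and 3654, 4367 and 2759 CPM at stage 13, and krt12.5.L 0, 0 and 0.0442 CPM and then 218, 289.7 and 491 CPM. Neither krt18.1.S (48.9, 71.8 and 85.7 CPM, then 90.0, 28.6 and 72.4 CPM; adjusted p = 0.823) nor krt19.S (23.0, 30.2 and 35.3 CPM, then 34.8, 33.6 and 52.4 CPM; adjusted p = 0.0795, and 0.018 without library b of stage 13) passed. Keratin genes of a cluster share sequence, and the split of reads between near-identical ones is uncertain.

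Cell contact genes moved both ways. Of 68 tested copies of junction and adhesion genes, 38 rose (55.9%, against 38.4% over all genes), 19 fell (27.9%, against 37.6%) and 11 did not pass. Their median log2 change was 0.69. With library totals it was −0.10, against −0.80 over all genes, and 28 rose and 31 fell. C-cadherin, the maternal cadherin cdh3, fell in its S copy from 158, 166 and 191 CPM to 63.8, 47.1 and 60.1 CPM (log2 change −1.59 ± 0.18 (SE), adjusted p = 9.93e-07), while cdh3.L (181, 211 and 248 CPM, then 205, 153 and 145 CPM) did not pass (adjusted p = 0.0842). It passed as a fall without library a of stage 9 or of stage 13 (adjusted p of 0.0196 and 0.0307) and with library totals (log2 change −1.15, adjusted p = 1.48e-05). E-cadherin cdh1.S rose from 17.2, 39.7 and 32.1 CPM to 1215, 1313 and 1184 CPM (log2 change 5.42 ± 0.30 (SE), adjusted p = 8.40e-10). Claudins of the tight junction differed too. The copy cldn4.L rose from 85.6, 153 and 142 CPM to 1761, 2312 and 1784 CPM, and cldn6.1.L fell from 298, 281 and 301 CPM to 47.3, 36.3 and 42.7 CPM. Alpha-catenin ctnna1.S and epcam.S rose (log2 change 0.86 ± 0.14 and 0.85 ± 0.20), calls that totals did not keep, and p120-catenin ctnnd1.L fell (log2 change −0.53 ± 0.15).

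Matrix genes did so too. In the basement membrane and matrix list 21 copies rose (47.7%), 15 fell (34.1%) and 8 did not pass of 44 tested. The median was 1.2, and 0.42 with totals, where 17 rose and 20 fell. Laminin chain lamb1.L rose from 0.181, 0.0464 and 0.0884 CPM to 133, 137 and 145 CPM (log2 change 10.23 ± 0.38 (SE), adjusted p = 2.04e-11), while lamb1.S was already at 35.4, 46.2 and 51.9 CPM at stage 9 and read 16.2, 36.4 and 33.8 CPM at stage 13. That fall of lamb1.S (log2 change −0.65 ± 0.28, adjusted p = 0.0485) was lost without the letter block (adjusted p = 0.0626) and when any of 4 libraries was left out (up to 0.233). The chain lama5.L rose (log2 change 2.29 ± 0.27). Fibronectin fn1.S, which lines the blastocoel roof, fell from 528, 328 and 452 CPM to 177, 92.2 and 112 CPM. Hyaluronan synthase has1.S was among the largest gains in CPM, from 599, 926 and 867 CPM to 10249.7, 10980.0 and 9981 CPM (log2 change 3.72 ± 0.20 (SE), adjusted p = 4.91e-10), and read 3115, 3069 and 3679 CPM at stage 17.

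Genes of the specialised epidermal cells rose more often than they fell. Of 59 tested copies of the multiciliated list, 49 rose (83.1%), 4 fell and 6 did not pass (median 3.51). In the ionocyte list, 27 of 50 rose (54%), 10 fell (20%) and 13 did not pass (median 1.45). With totals the ionocyte list had 21 rises and 17 falls. In the secretory list, 19 of 24 rose (79.2%), 1 fell and 4 did not pass (median 3.39). Over all genes 38.4% rose and 37.6% fell. Multicilin, mcidas.S, which starts the multiciliated fate, rose from 1.34, 1.35 and 1.86 CPM to 201, 284 and 329.8 CPM (log2 change 7.52 ± 1.28 (SE), adjusted p = 1.45e-04), and read 108, 110.4 and 116 CPM at stage 17. The ciliary master regulator foxj1.S rose from 0.653, 2.92 and 0.752 CPM to 142, 169 and 175 CPM. Among structural genes the tektin tekt2.S rose from 0.0726, 0.0464 and 0.133 CPM to 64.1, 139 and 124 CPM, and the axonemal dynein dnah9.S (log2 change 3.01 ± 0.37). Stage 13 library a was the lowest of the 3 for each of these 4 genes. The dynein dnah5.L, at 7.66, 4.73 and 9.50 CPM and then 5.14, 9.77 and 2.03 CPM, did not pass (adjusted p = 0.488). Falls included the ciliary transcription factor rfx3.L, from 7.33, 6.12 and 5.88 CPM to 0.171, 0.709 and 0.882 CPM, e2f5.L, a partner of multicilin that other cells also use, from 87.3, 80.2 and 118 CPM to 28.3, 21 and 26.6 CPM, and gmnc.S, an upstream regulator of the fate, from 1.2, 1.81 and 2.52 CPM to none (at least 26.9-fold lower).

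Ionocyte genes varied between the stage 13 libraries. The fate regulator dmrt2.L read 4.28, 2.41 and 1.55 CPM at stage 9 and 58.1, 126 and 55.5 CPM at stage 13, and the proton pump subunit atp6v1b1.L 0.435, 0.789 and 0.442 CPM and 15.3, 65.8 and 22.4 CPM. The CP2-family factor tfcp2l1.S rose from 36.9, 17.4 and 25.7 CPM to 202, 235 and 155 CPM (log2 change 2.97 ± 0.35 (SE), adjusted p = 2.45e-06). Carbonic anhydrase ca12.L rose (log2 change 2.48 ± 0.89, adjusted p = 0.0221), a call lost when any of 3 libraries was left out (up to 0.121), with totals or with no filter on low counts. Pump subunits of all cells moved less: atp6v1a.S fell (log2 change −0.63 ± 0.17), and atp6v1b2.S rose (log2 change 0.62 ± 0.13), which was −0.17 with totals.

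Among secretory genes otogl2.L, an otogelin-like mucus protein, went from 0.254, 0 and 0.0442 CPM to 7566, 8784 and 7065 CPM (log2 change 16.05 ± 1.17 (SE), adjusted p = 3.19e-08). Intelectin itln1.L, a lectin that goblet cells secrete, had no counts at stage 9 and read 564, 887 and 1071 CPM at stage 13, at least 19648-fold higher. At stage 17 the means were 18077 ± 3885 CPM for otogl2.L and 3575 ± 950.4 CPM for itln1.L (SD, n = 3). The copy itln1.S stayed low, at 0.218, 0.325 and 0.177 CPM and 0.743, 0.552 and 0.949 CPM, a rise (log2 change 1.67 ± 0.55) that was lost without library c of stage 13 (adjusted p = 0.0592). Serotonin-synthesis enzyme tph1.L, a marker of small secretory cells, stayed at 0.145, 0.232 and 0.221 CPM and 0.114, 0.473 and 0.542 CPM and did not pass (adjusted p = 0.217). The forkhead gene foxa1, also among the goblet and secretory markers, rose in both copies. Levels of foxa1.L went from 0.508, 0.510 and 0.619 CPM to 4.23, 24.4 and 12.7 CPM (adjusted p = 3.54e-04). Those of foxa1.S went from 0.435, 0.232 and 0.177 CPM to 11.3, 14.2 and 16.1 CPM (adjusted p = 1.98e-07).

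**Figure D3:**
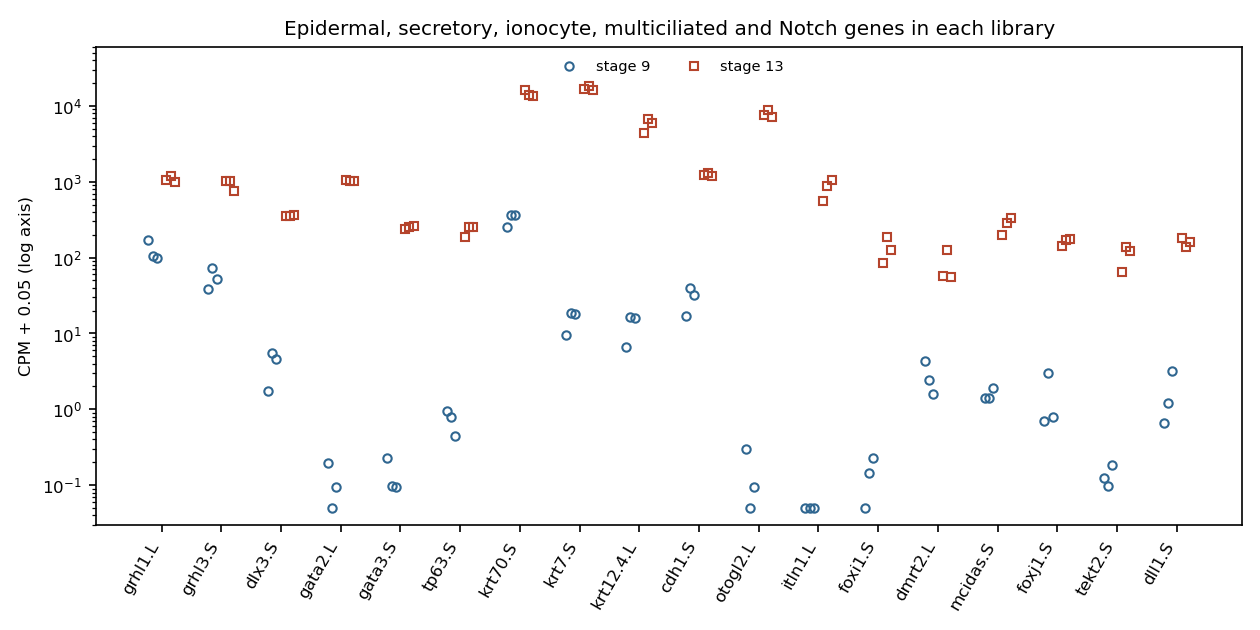
CPM + 0.05 (log axis) of 18 genes in each stage 9 (blue circles) and stage 13 (red squares) control library, a, b and c from left to right. In each of the 18 genes, all of which rose, every stage 13 library lies above every stage 9 library. Over all genes this was so in 8729 of the 9402 rises. No counts were read for itln1.L at stage 9.

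Notch signalling spaces the specialised cells of the inner layer, and BMP signalling sets epidermal against neural fate. Of 53 tested Notch pathway copies, 27 rose (50.9%, against 38.4% over all genes), 15 fell (28.3%, against 37.6%) and 11 did not pass. The median was 0.73. With totals it was −0.06, against −0.80 over all genes, with 21 rises and 20 falls. The ligand dll1.S rose from 0.617, 1.16 and 3.18 CPM to 180.3, 139 and 163 CPM (log2 change 6.88 ± 0.67 (SE), adjusted p = 4.60e-07). The fringe enzyme rfng.L and the target repressor hes4.L rose (log2 change 2.6 ± 0.21 and 2.49 ± 0.25), while the ligand-activating ubiquitin ligase mib1.L fell (log2 change −0.60 ± 0.12) and fringe lfng.S (log2 change −0.66 ± 0.20). Of 74 tested BMP copies, 46 rose (62.2%), 14 fell (18.9%) and 14 did not pass (median 1.64, and 0.89 with totals). The ligand bmp7.1.S had no counts at stage 9 and read 50, 65.8 and 48.6 CPM at stage 13, at least 1291-fold higher. The receptor-activated effector smad1.L fell from 146, 173 and 154 CPM to 92.6, 104 and 84.5 CPM (log2 change −0.75 ± 0.12 (SE), adjusted p = 2.72e-05), and the protease bmp1.L fell (log2 change −1.57 ± 0.18). The homeobox target msx1 rose in both copies, msx1.S from 0.399, 0.186 and 0.309 CPM to 162, 157 and 149.8 CPM.

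Ribosomal protein genes rose almost without exception. Of 135 tested copies of cytoplasmic ribosomal proteins, 133 rose, none fell and 2 (rps27l.L and rps27l.S) did not pass, with a median log2 change of 2.79. With library totals 132 rose and 1 fell. The summed level rose 6.72-fold on the TMM scale (exact permutation p = 0.1, the smallest possible). As examples, rpl3.L rose from 109.9, 129 and 126 CPM to 888, 851 and 1052 CPM (log2 change 2.93 ± 0.14 (SE), adjusted p = 1.75e-10) and rps20.L from 48.2, 82.3 and 53.5 CPM to 409.8, 444 and 439 CPM. Elongation factor eef1a1.L rose from 449.5, 588 and 526 CPM to 5217, 4379 and 4349.8 CPM. Of 75 tested ribosome biogenesis copies, 60 rose and 5 fell (median 1.2; 0.41 with totals, where 21 fell), among them nucleolin ncl.L from 179, 195 and 183 CPM to 1912, 1705 and 1790.4 CPM. Libraries were made from poly(A) RNA, so a longer tail on a stored message and more of the message cannot be told apart.

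Other cell machinery was less uniform. Respiratory chain copies rose in 86 of 130 and fell in 13, with a median of 0.76. With totals the median was −0.03, against −0.80 over all genes, and 47 rose and 40 fell. The beta subunit of ATP synthase split by copy, atp5f1b.S rising from 122, 139 and 166 CPM to 635, 523 and 569.7 CPM and atp5f1b.L falling from 193, 176 and 261 CPM to 55.8, 38.2 and 53.8 CPM. Proteasome subunits rose in 54 of 68 copies and fell in 3 (median 1.09; 0.29 with totals, where 31 rose and 18 fell), with psmd11.L among the rises (log2 change 1.45 ± 0.10). Lysosomal genes fell in 23 of 44 copies (52.3%, against 37.6% over all genes) and rose in 8 (18.2%, against 38.4%), with a median of −0.70. The cathepsin ctsd.S fell from 167, 116 and 216 CPM to 14.1, 12 and 12.7 CPM (log2 change −3.65 ± 0.18 (SE), adjusted p = 1.95e-10). The palmitoyl thioesterase ppt1.S rose, from 8.53, 9.65 and 6.28 CPM to 161, 169 and 90.7 CPM.

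Chromatin genes rose in 32 (45.1%) and fell in 27 (38.0%) of 71 copies, against 38.4% and 37.6% over all genes. Their median was 0.23, and −0.56 with totals (18 rises and 41 falls). HMG-box protein hmgb2.L rose from 629, 820.1 and 844 CPM to 3999, 3981 and 3879 CPM, and the histone chaperone nasp.S fell from 571, 564 and 625 CPM to 178, 92.9 and 91.5 CPM (log2 change −2.35 ± 0.30 (SE), adjusted p = 5.79e-06), as did the ISWI remodeller smarca5.S (log2 change −2.51 ± 0.16). Of 26 histone copies 13 rose (50%) and 6 fell (23.1%), with a median of 0.38, and −0.41 with totals. Replication-dependent histone messages lack a poly(A) tail, which the library preparation selects for. RNA decay genes rose in 27 (37.0%) and fell in 32 (43.8%) of 73 copies (median 0.05, and −0.75 with totals). The deadenylation cofactor btg1.L rose from 44.8, 61.4 and 65.5 CPM to 939.6, 941 and 1048 CPM, and the exonuclease xrn1.L fell (log2 change −1.74 ± 0.20). Zinc finger genes fell in 81 (42.0%) and rose in 63 (32.6%) of 193 copies (median −0.12). Of 27 copies of genes often used as references, 16 rose and 5 fell (11 and 10 with totals), the falls including odc1.S, ornithine decarboxylase of polyamine synthesis, from 780.3, 873 and 1038 CPM to 278, 219 and 358 CPM.

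**Figure D4:**
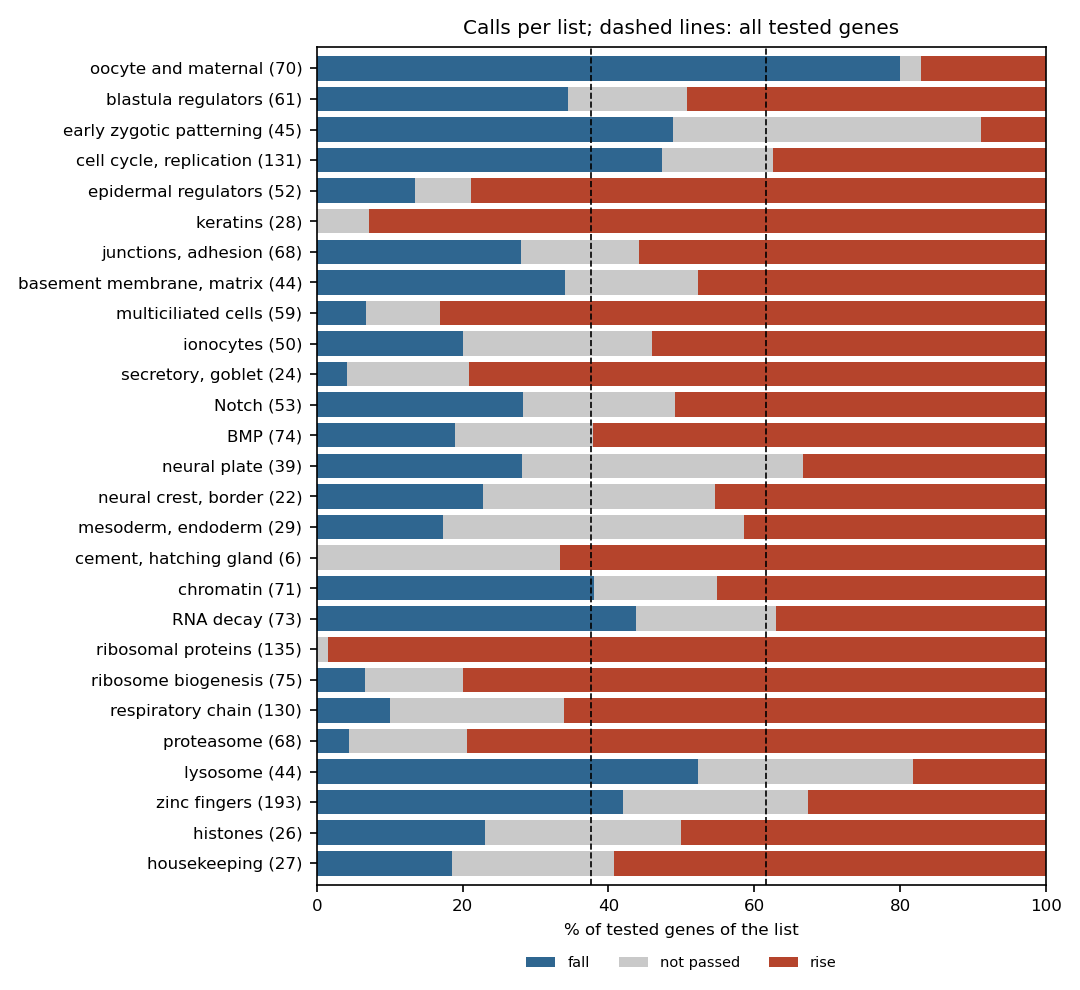
Share of each list's tested gene copies that fell (blue), did not pass (grey) or rose (red) from stage 9 to 13 (adjusted p under 0.05, TMM scale), with the number tested in brackets. Dashed lines mark the shares over all tested genes, 37.6% falling and 38.4% rising. Keratins, ribosomal proteins and the cement and hatching gland list hold no fall. The oocyte and maternal list holds the largest share of falls of the lists drawn. Keratin copies with no counts at stage 9 could not fall, and no hatching gland gene was tested.

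Lists of other lineages held rises as well as falls, as did all tested genes (38.4% rose and 37.6% fell). Rises made up 33.3% of neural, 45.5% of neural crest and border and 41.4% of mesoderm and endoderm copies. Falls made up 28.2%, 22.7% and 17.2% of them. Of 39 tested neural copies, 13 rose, 11 fell and 15 did not pass; ncam1.L, a neural adhesion molecule, rose from 0.0726, 0.0464 and 0.0884 CPM to 12.2, 15.7 and 11.5 CPM, and the Iroquois gene irx1.S fell (log2 change −1.28 ± 0.25). Of 22 neural crest and border copies, 10 rose and 5 fell, and the summed rise was carried by msx1 and by complement c3.L, at 0.508, 0 and 0.486 CPM and then 173, 143 and 172 CPM. Of 29 mesoderm and endoderm copies, 12 rose and 5 fell; hhex.L rose from 0.145, 0.0464 and 0.133 CPM to 8.74, 23.7 and 21.6 CPM, and sox17b.1.L, an endoderm factor, fell from 9.80, 12.9 and 12.6 CPM to 0.343, 0.236 and 0.271 CPM. In the cement and hatching gland list 4 of 6 tested copies rose, agr2.S from 0.109, 0.0464 and 0.177 CPM to 287, 187 and 189.9 CPM. No hatching gland gene was among the 6 copies. Of that gland's genes he, astl2c and astl3a matched no symbol, and astl3b.1.L had no counts in the control libraries of either stage.

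The 12 largest rises in fold were of mixed kinds. Beside itln1.L, otogl2.L, gata2.L, krt12.4.S, krt12.5.L and bmp7.1.S, they were adgrf1.L, an adhesion G protein-coupled receptor (137, 145 and 102 CPM at stage 13), slc6a3.S, the dopamine transporter (137, 104 and 67.1 CPM), vtcn1.L, a B7-family immune ligand (57.7, 68.0 and 51.3 CPM), the alpha-tubulin tuba1cl.1.L (59.2, 115 and 131 CPM), spata18a.L (74.2, 179.9 and 161 CPM) and val.L (119.8, 164 and 171 CPM). The first 5 of these 6 had no counts at stage 9, and val.L had 1. Among genes with a symbol, the largest loss in CPM was that of slc16a3.L, a monocarboxylate transporter, from 815, 1007 and 908 CPM to 193, 175 and 173 CPM. Cold-inducible RNA-binding protein cirbp.L was among the 6 largest gains in CPM, from 841, 1109.9 and 1163 CPM to 9356, 9547 and 8409 CPM (log2 change 3.14 ± 0.16 (SE), adjusted p = 2.35e-10).

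Xenopus laevis arose from a cross of 2 species, and its L and S chromosome sets keep many genes as a pair of copies. Both copies were tested for 6174 pairs. They rose together in 1621 pairs and fell together in 1609, which is 52.3% of pairs in all. In 673 pairs (10.9%) the copies passed in opposite directions, and in 328 of these both changed at least 2-fold; L rose and S fell in 391, and S rose and L fell in 282. In 1827 pairs 1 copy passed, and in 444 neither. Across pairs the log2 changes of L and S had a Pearson correlation of 0.62, a description across genes that share libraries, and the median distance between copies was 1.16. Reads that match both copies were not counted, so near-identical stretches add to neither.

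By the rule of largest distance, 6 pairs with opposite changes were read in full. For ccdc68, a coiled-coil gene, the L copy rose from 0.218, 1.39 and 0.398 CPM to 177, 152 and 104 CPM and the S copy fell from 55.6, 39.9 and 46.8 CPM to 3.26, 0.709 and 1.56 CPM. The stages did not overlap in either copy. For ecm1, an extracellular matrix protein, the S copy rose (log2 change 6.59 ± 0.57) and the L copy fell (log2 change −5.82 ± 1.08). For neurl1, a ubiquitin ligase of the Notch pathway, L read no counts at stage 9 and 5.54, 14.7 and 19.8 CPM at stage 13, while S fell (log2 change −2.20 ± 0.48). For corin, a membrane protease, L fell from 10.8, 8.12 and 9.06 CPM to 0.286, 0.236 and 0.203 CPM and S rose from none to 0.171, 1.97 and 2.98 CPM, and for tmem72, a membrane protein, L rose from 0.0726, 0.0464 and 0.309 CPM to 12.2, 18.1 and 10.5 CPM and S fell from 1.71, 1.39 and 1.19 CPM to 0, 0 and 0.0678 CPM. In angptl4 the L copy went from 2.69, 0.974 and 1.28 CPM to none and the S copy from none to 1.77, 1.42 and 0.136 CPM, all low levels.

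**Figure D5:**
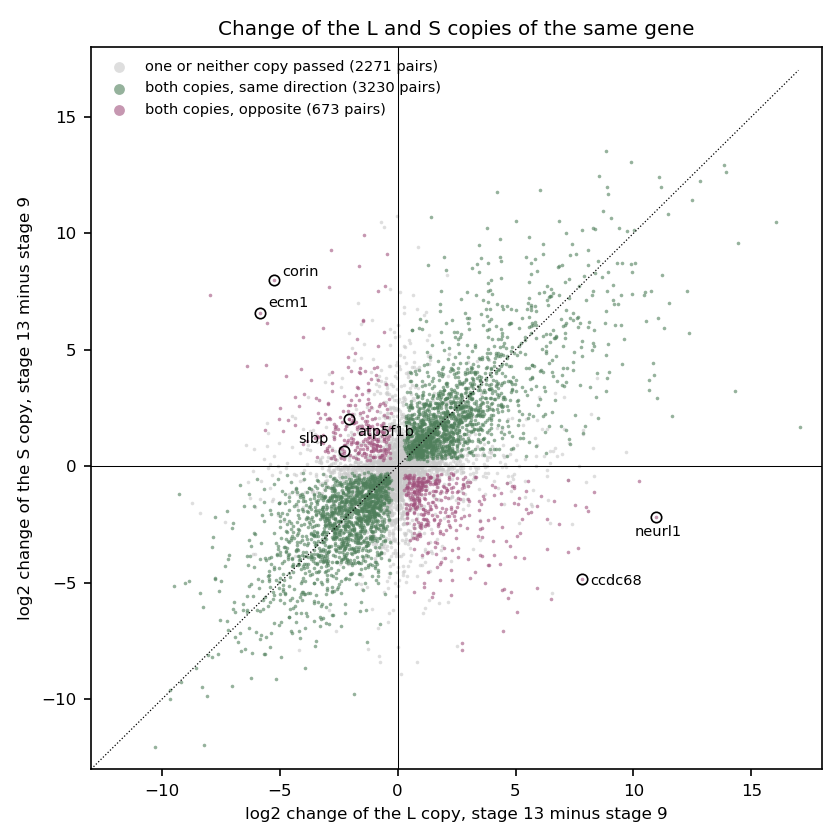
Log2 change from stage 9 to 13 of the L copy (x axis) and the S copy (y axis) of 6174 genes with both copies tested. Green pairs passed in the same direction (52.3%), purple pairs in opposite directions (10.9%) and grey pairs in 1 copy or neither; circles mark genes named in the text.

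Whether the same changes took place in induced caps was tested as the change in control caps minus the change in induced caps, in the same fit. The difference lay above 0 in 3747 genes (15.3%) and below 0 in 2881 genes (11.8%). Multiciliated genes stood above this background, with 47 of 59 copies above 0 and 1 below, as did ionocyte genes with 28 of 50 above and none below, and keratins with 13 of 28 above and 1 below. For the ciliary regulator foxj1.S, stage 13 levels were 162 ± 17.6 CPM in control caps and 4.80 ± 7.76 CPM in induced caps (SD, n = 3), and the difference of log2 changes was 5.80 ± 1.51 (SE, adjusted p = 0.0129). For grhl3.S they were 939.7 ± 151 and 211 ± 41.3 CPM (SD, n = 3), with a difference of 1.77 ± 0.33 (SE, adjusted p = 0.00126). The whole list of epidermal regulators was mixed, with 12 copies above 0 and 16 below of 52, among the latter grhl2.L (−2.68 ± 0.70, SE, adjusted p = 0.0106). For foxj1.S the SD of induced caps was larger than their mean, so the induced libraries differed from each other. Neural crest and border copies were below 0 in 16 of 22 and above in none, and neural copies below in 16 of 39. Ribosomal proteins differed in no copy of 135, histones in none of 26 and respiratory chain genes in 2 of 130. Other machinery did differ: ribosome biogenesis copies were below 0 in 28 of 75 and above in none, chromatin copies below in 27 of 71 and above in 1, and cell cycle copies below in 32 of 131 and above in 6. The oocyte and maternal list differed in 8 copies above 0 and 5 below of 70, under the shares over all genes.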

How the data were processed

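Poly(A) RNA of frog animal caps was sequenced from directional NEBNext Ultra II libraries, per the labels' protocols. The authors deposited raw counts of reads per gene (49282 genes); fastp 0.23.2, STAR 2.6.0 and HTSeq 1.99.2 are named in the submitters' processing notes. Neither build nor annotation nor strand setting is given in the sources used here. The summary lines of the table were set aside: reads outside genes came to 10.8% to 12.8% per library, multiply mapped reads to 10.3% to 12.2% and ambiguous reads to 0.198% to 0.378%. Because multiply mapped and ambiguous reads are not in any gene, near-identical copies are uncertain, and overlapping genes are too.

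The 18 frog libraries were fitted with edgeR 4.0.16 in R 4.3.3 (TMM, filterByExpr, robust quasi-likelihood, group plus letter, 10 residual degrees of freedom), and stage 13 was compared with stage 9 in control caps. The filter on low counts used all 6 frog groups, so a gene absent at stage 9 could be tested through its level elsewhere. Such a gene could rise or not pass, but not fall. Calls used a Benjamini-Hochberg adjusted p of 0.05. Standard errors are the log2 change divided by the square root of F and are nominal where a stage is near 0. Folds against a stage with no count used a floor of 3 counts over the group. A summed list was tested by an exact two-sided permutation of libraries. Lists were matched to gene symbols of the table. Some genes are members of several lists, so counts of different lists are not independent.

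The letter pairs libraries across stages: deviations from the group means correlated at 0.283, 0.294 and 0.275 for the same letter and at −0.165 to −0.125 for different letters. Deviations sum to 0 within a group, so the negative values follow from the positive ones and are no separate evidence. Letters come from the column names. The comparison and the lists were chosen with earlier results of these data known. Genes were named by rule: the 12 largest changes each way in fold among non-overlapping genes of at least 10 CPM with a symbol, the 6 largest each way in CPM, the 3 most abundant rises and falls of each list with members that did not pass where 5 or fewer did so, early and later forms, and the 6 copy pairs furthest apart. A few other genes (counts of 5 or fewer, markers, listed exceptions) were named after their values were seen, and a few genes that the rule picks are not reported here. On simulated counts of 23205 genes the fit recovered 70.0% to 70.2% of 4-fold and 29.8% to 31.8% of 2-fold changes, with 3 false calls of 99. The simulation changed a small set of genes and held all others level across groups. In the data most genes changed, so these rates need not hold for the comparison reported. Alternatives were no block, the 6 or the 9 control libraries alone, DESeq2 1.42.0, library totals, RLE size factors, no filter, 1 CPM in 3 libraries, and leaving out each library.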

Additional observations from a re-analysis of the deposited data

Results flagged for a closer look

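The change from stage 9 to stage 13 differed between control and induced caps in 3747 genes that changed upward more (or downward less) in control caps and in 2881 genes that did the opposite, by the interaction in the same edgeR fit (adjusted p of 0.05). Each value below is the control change minus the induced change on the log2 scale. The forkhead gene foxi1.L stood at 6.26, krt12.5.L at 6.08 and krt12.4.S at 5.9. In induced caps of stage 13 these 3 genes read 2.2 ± 3.43, 46.2 ± 29.6 and 321 ± 163 CPM (SD, n = 3), against 84.1 ± 28.5, 333 ± 142 and 3593 ± 806 CPM in control caps. The zinc finger gene zic2.L stood at −11.49, the kinase gene wee1.S at −1.79 and cdh1.L at −6.24. The difference for cdh1.L was −4.82 and did not pass without library a of control stage 9 (adjusted p = 0.205). Induced caps of stage 13 read 214 ± 59.8 CPM of zic2.L, 156 ± 55.4 CPM of wee1.S and 10.3 ± 2.44 CPM of cdh1.L, against 0.087 ± 0.0243, 63.2 ± 6.88 and 0.265 ± 0.113 CPM in control caps. The E-cadherin copies thus parted: cdh1.L was at most 0.343 CPM in the control libraries of stage 13, where cdh1.S was at 1237 ± 67.4 CPM.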

How the results depend on the processing

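The counts over all genes stayed within 1.5 times of the values reported under the alternatives run, whereas of the 56 counts per list 18 did not with library totals, 3 and 4 did not in the 6-library fits with and without the block, and at most 1 did not under each other setting. Without the replicate block, 8870 genes rose and 8607 fell; other settings gave 6596 (library totals) to 9737 rises (no filter) and 7834 (the 6 libraries with no block) to 12706 falls (library totals). Leaving out 1 of the 6 libraries gave 8951 to 9192 rises and 8813 to 9048 falls. The interaction counts were 3108 to 4130 above 0 and 2175 to 3644 below 0, and 3117 to 3594 and 2263 to 2670 with 1 library left out. With library totals 9 named rises turned negative on the log2 scale: ddx4.L (−0.38), atp6v1b2.S (−0.17), smad4.1.S (−0.35), uqcrfs1.L (−0.40), uqcrfs1.S (−0.22), znf326.S (−0.031), znf638.S (−0.084), lmnb1.S (−0.21) and slbp.S (−0.15), by construction of a shift of −0.79 in the median. Of 305 named genes, 272 kept direction and call with totals, and 273 to 303 did so under the other settings, some of which tested fewer of them. The block ended no call named in the report other than those given there beside their gene. Low counts limit genes at 0 in a stage: 3 counts in 1 library were 0.109 to 0.236 CPM.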
